A study of Mus musculus with 7 samples.

Results

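The Slit ligands and their Robo receptors were followed in mouse whole neocortex through 6 genes, Slit1, Slit2, Slit3, Robo1, Robo2 and Robo3. Each member was taken by name, as the probe set whose annotation gave that symbol alone, with the brightest kept where a gene had several. Each of the 6 had 1 such probe set, and all 6 passed a filter that left out probe sets with a mean log2 signal below the 25th percentile, so the members were 6 of the 16144 genes tested. Gene expression was measured on 7 one-colour arrays, 1 per sample, in C57BL/6 mice. The 4 CKO arrays (CKO 1, CKO 4, CKO 34 and CKO 43) carried a genotype that joins COUP-TFI with Nex-Cre, and the 3 WT arrays (WT 6, WT 27 and WT 38) were wild type. COUP-TFI is the nuclear receptor encoded by Nr2f1, and Nex-Cre is expressed from the Neurod6 locus in postmitotic glutamatergic neurons, so cells of other types in the tissue are not the direct target of recombination. The WT label names no Cre or floxed allele. The labels do not state the age of the animals or whether each array stands for 1 animal, so the p-values below rest on a spread between arrays that may be partly technical.

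Slits are large secreted glycoproteins with leucine-rich repeats, and Robos are single-pass receptors of the immunoglobulin superfamily. Binding of a Slit to a Robo mostly repels growing axons and migrating cells, and heparan sulfate helps to hold the pair together. In the forebrain the pathway is known for keeping callosal, corticofugal and thalamocortical axons in their tracts and for guiding interneurons around the striatum. Robo3 is the divergent member, best known from commissural axons of the hindbrain and spinal cord, and the mammalian protein binds Slits poorly.

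Values below are log2 signals made by RMA, a method that corrects background, gives all arrays 1 distribution and summarises each probe set. Differences are CKO minus WT on that log2 scale with limma's standard error (SE), and adjusted p-values are limma's with Benjamini-Hochberg adjustment over all 16144 genes. Signals of different probe sets depend on their probes and were not ranked against each other. Whole tissue was measured, so fewer cells of a type and less RNA per cell cannot be told apart. The targeted gene Nr2f1 lay between 10.60 and 10.79 on the CKO arrays and between 10.88 and 11.16 on the WT arrays, without overlap, with a difference of -0.36 (SE 0.074) and an adjusted p of 0.435 by limma. With the striatal covariate described below it was -0.19 (SE 0.087). Whether its probe set covers the deleted part is not known here. Of 8 markers of neocortical glutamatergic neurons, 5 had a probe set of their own and all 5 passed the filter. Neurod2 (13.13 in both groups), Emx1 (0.07, SE 0.072) and Slc17a7 (-0.12, SE 0.106) overlapped between the groups. Neurod6, the gene whose locus drives Cre, lay lower in CKO without overlap, by -0.20 (SE 0.057), or -0.09 (SE 0.078) with the striatal covariate. Tbr1 lay higher without overlap, by 0.14 (SE 0.057). Neurod6 and Tbr1 had adjusted p-values of 0.711 and 0.726 by limma. By the identifiers in the labels, read here as array lots, CKO 1 and CKO 4 lie in 1 lot, CKO 34, CKO 43, WT 27 and WT 38 in another, and WT 6 in a lot of its own. Over all genes 4 passed an adjusted p of 0.05, or 0.0248%, and none of them was a Slit or Robo.

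No member passed the adjustment over all genes. The ligands differed in opposite directions: Slit1 was higher and Slit3 lower in CKO without overlap between the groups, and Slit2 leaned lower with overlap. The receptors Robo1, Robo2 and Robo3 overlapped between the groups. In all, 2 of 6 members did not overlap, against a background of 8.38% of all genes (5.39% higher and 2.99% lower in CKO). An unadjusted p under 0.05 was reached by 3 of 6, Slit1, Slit3 and Robo1, against 6.79% of all genes (4.17% higher and 2.61% lower in CKO). With 6 genes chosen with earlier results of these data in view, these counts describe the members and test nothing about the family.

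**Figure D1:**
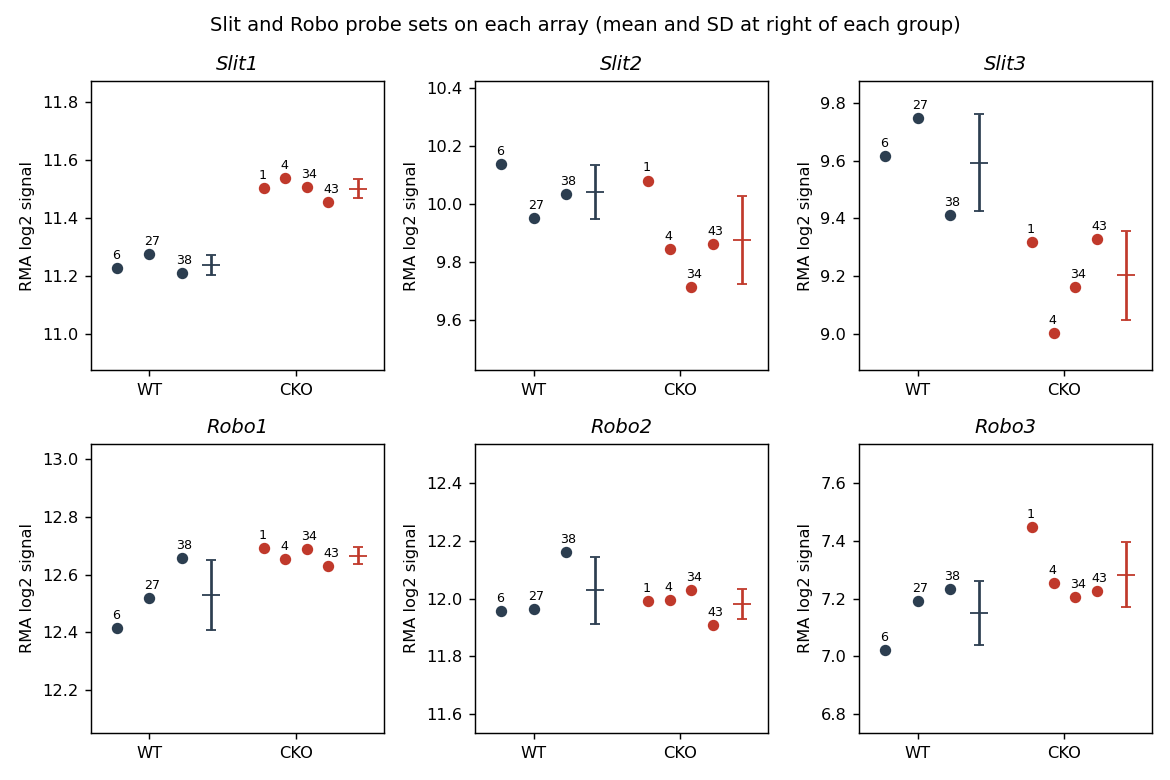
RMA log2 signal (y axis, a span of 1 log2 unit in every panel) of the 6 Slit and Robo probe sets on each of the 3 WT and 4 CKO arrays, with array numbers beside the points and the mean with its SD at the right of each group. All 4 Slit1 points of CKO lie above all 3 of WT, all 4 Slit3 points lie below, and the groups overlap for Slit2, Robo1, Robo2 and Robo3.

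Slit1 (probe set 10467599), a ligand made by neurons of the forebrain, read 11.50 on CKO 1, 11.54 on CKO 4, 11.51 on CKO 34 and 11.46 on CKO 43. It read 11.23 on WT 6, 11.28 on WT 27 and 11.21 on WT 38. The lowest CKO array stood 0.18 above the highest WT array, and the arrays of each group lay close together, at 11.50 ± 0.034 (SD, n = 4) for CKO against 11.24 ± 0.036 (SD, n = 3) for WT. Slit1 thus differed by 0.26 (SE 0.039), or 1.20-fold, with a 95% interval of 1.13-fold to 1.28-fold, and an adjusted p of 0.161 by limma. Slit1 had rank 11 by p among all genes and rank 3 among those higher in CKO. Its difference was matched or exceeded in size by 229 genes, and 10.4% of genes had a smaller SE. Within the lot that held both genotypes the difference was 0.24 (SE 0.052, adjusted p 0.999 by limma). Over the alternatives in processing the adjusted p ran from 0.0741 to 0.999.

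Slit3 (probe set 10375175), a ligand also known from meningeal and other mesenchymal tissue, read 9.32 on CKO 1, 9.003 on CKO 4, 9.16 on CKO 34 and 9.33 on CKO 43. It read 9.62 on WT 6, 9.75 on WT 27 and 9.41 on WT 38. All CKO arrays lay below all WT arrays, but the groups stood only 0.08 apart and each was wide, with means of 9.20 ± 0.154 (SD, n = 4) and 9.59 ± 0.169 (SD, n = 3). CKO minus WT was -0.39 (SE 0.10), which is 0.764 of the WT signal with a 95% interval from 0.651 to 0.895, and the adjusted p was 0.690 by limma. This was the larger difference of the pair, yet 93.1% of genes had a smaller SE than Slit3, and by p it held rank 101 where Slit1 held rank 11. Within the mixed lot the difference was -0.33 (SE 0.135).

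Slit2 (probe set 10521759), the ligand that is studied most at the midline and around the striatum, read 10.08 on CKO 1, 9.84 on CKO 4, 9.71 on CKO 34 and 9.86 on CKO 43. It read 10.14 on WT 6, 9.95 on WT 27 and 10.03 on WT 38. CKO 1 lay among the WT arrays and the other CKO arrays lay below them all. The difference was -0.17 (SE 0.085), between 0.779 and 1.02 of the WT signal, with an adjusted p of 0.730 by limma. Without CKO 1, the only CKO array among the WT arrays, the groups did not overlap, as for 10.9% of all genes in that setting. The difference was then -0.23 (SE 0.066, adjusted p 0.956 by limma).

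**Figure D2:**
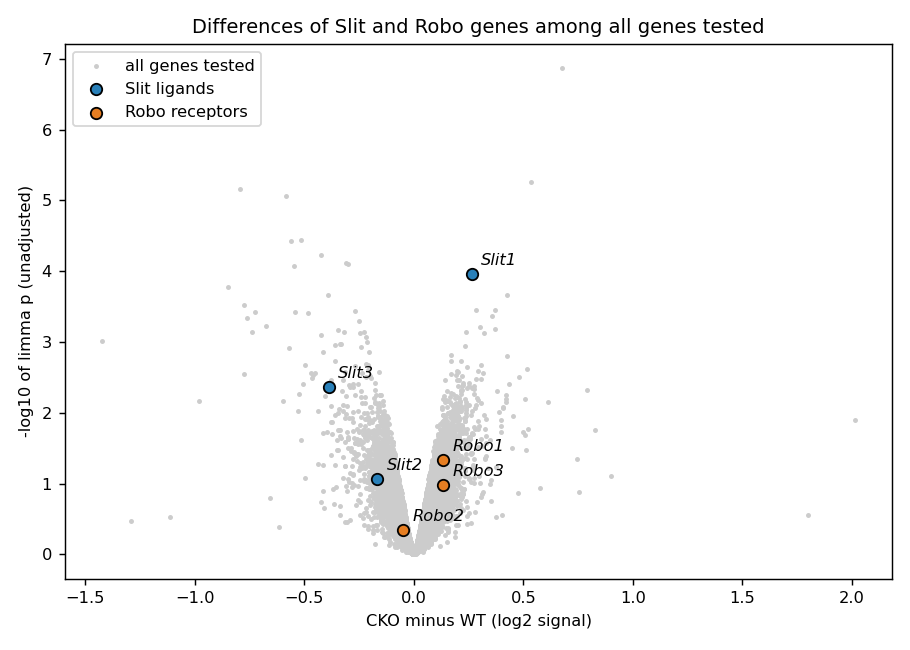
Difference between CKO and WT (x axis, log2 signal) against the -log10 of the unadjusted limma p (y axis) for all 16144 genes tested, with Slit ligands in blue and Robo receptors in orange. Slit1 sits high on the right at 0.26 and Slit3 on the left at -0.39, while Robo2 sits near the foot at -0.05.

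Robo1 (probe set 10436519), a main Slit receptor of cortical axons and interneurons, read 12.69 on CKO 1, 12.65 on CKO 4, 12.69 on CKO 34 and 12.63 on CKO 43. It read 12.41 on WT 6, 12.52 on WT 27 and 12.66 on WT 38. The CKO arrays were nearly level, with an SD of 0.029, while the WT arrays had an SD of 0.121, and WT 38 lay inside the CKO range. The difference was 0.13 (SE 0.058), or 1.10-fold with a 95% interval of 1.00-fold to 1.20-fold, and the adjusted p was 0.726 by limma. It was 0.07 within the mixed lot and 0.08 without WT 6, and 0.20 without WT 38, when the groups no longer overlapped. Without WT 38, 22.2% of all genes did not overlap.

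Robo2 (probe set 10440344), the receptor that acts beside Robo1 in the corpus callosum and thalamocortical tracts, read 11.99 on CKO 1, 11.99 on CKO 4, 12.03 on CKO 34 and 11.91 on CKO 43. It read 11.96 on WT 6, 11.97 on WT 27 and 12.16 on WT 38. The groups were interleaved apart from WT 38, which was the highest array. The difference was -0.05 (SE 0.059, adjusted p 0.852 by limma), with a 95% interval from 0.881 to 1.06 of the WT signal. It was -0.09 within the mixed lot. Without WT 38 its sign turned, to 0.02 (SE 0.043, adjusted p 0.863 by limma).

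Robo3 (probe set 10592303) was dim, with a mean of 7.23 against a filter at 6.84. It read 7.45 on CKO 1 and between 7.21 and 7.25 on the other CKO arrays, and 7.02 on WT 6, 7.19 on WT 27 and 7.23 on WT 38. CKO 1 was the highest array and WT 6 the lowest, and neither belonged to the mixed lot. The difference was 0.13 (SE 0.074), between 0.976 and 1.23 of the WT signal, with an adjusted p of 0.739 by limma. It was 0.003 (SE 0.045) within the mixed lot, 0.08 without CKO 1 and 0.07 without WT 6.

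**Figure D3:**
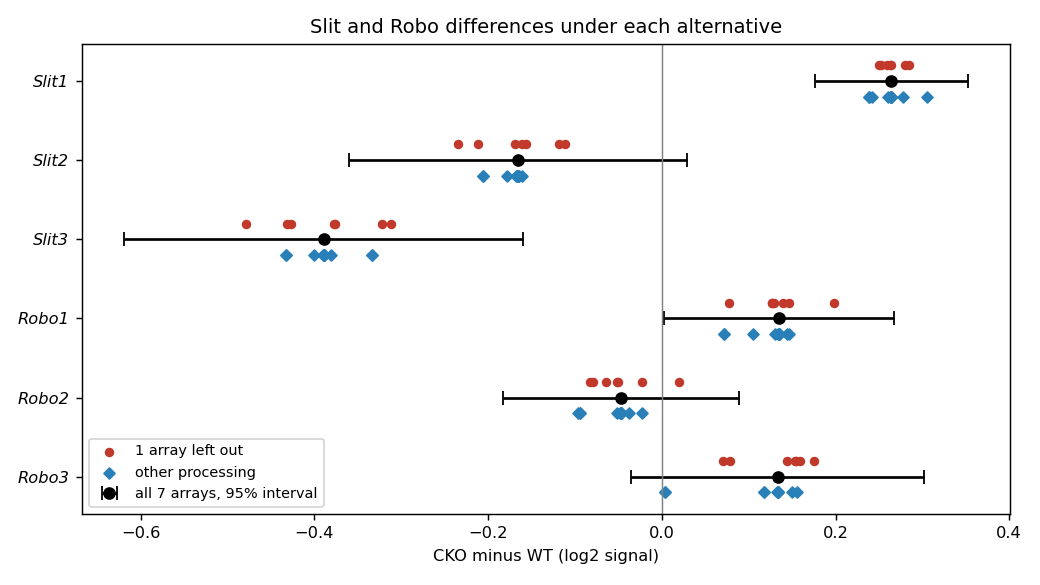
Difference between CKO and WT (x axis, log2 signal) for each member with its 95% interval over all 7 arrays (black), with 1 array left out (red circles) and under other processing (blue diamonds). Slit1 stays between 0.24 and 0.31 and Slit3 between -0.48 and -0.31, and Robo2 alone has a value on the other side of 0.

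Slit2 and Slit3 each host a copy of the microRNA miR-218, and both copies have a probe set on the array. In the RefSeq gene table (GRCm38.p6) Mir218-1 lies inside the span of Slit2 and Mir218-2 inside that of Slit3. The sequences are shown because the copies share 1 mature guide arm while their other arms differ. They come from RefSeq and are printed 5′ to 3′ with the seed, bases 2 to 8, in capitals. The first arm is made from both chr5:48223966-48223986 and chr11:35616840-35616860, plus strand.
miR-218-5p: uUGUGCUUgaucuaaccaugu
miR-218-1-3p: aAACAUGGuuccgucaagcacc
miR-218-2-3p: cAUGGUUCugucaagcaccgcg
The seed UGUGCUU of miR-218-5p occurs in 2 of 1679 mature mouse miRNA names in that table, miR-218-5p and miR-7002-3p, whereas the 3p arms carry the different seeds AACAUGG and AUGGUUC. Signals of these probe sets cannot tell a processed miRNA from its precursor or from host transcript.

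Mir218-1 (probe set 10521796) read 7.58, 7.30, 7.43 and 7.55 on CKO 1, CKO 4, CKO 34 and CKO 43, and 7.64, 7.61 and 8.27 on WT 6, WT 27 and WT 38. The groups did not overlap, but the highest CKO and lowest WT arrays were only 0.03 apart, and WT 38 stood well above all others. The difference was -0.38 (SE 0.155, adjusted p 0.726 by limma), and it was -0.16 (SE 0.081) without WT 38. Its host Slit2 was highest on WT 6, not on WT 38. Mir218-2 (probe set 10375214), inside Slit3, lay under the filter, at 6.58 to 6.75 in CKO and 6.58 to 6.80 in WT, so it was not tested and did not show the separation seen for its host.

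Promoters in the RefSeq table (GRCm38.p6) run from 250 bases before a start to 50 after it, and 5 of 6 members had an entry. The exception was Slit1. The half-site AGGTCA, the letters that COUP-TF receptors are known to bind as repeats, was searched on both strands. It was in none of the 7 windows of these 5 genes (Robo2 has 3), while 16.3% of all 32851 promoters held it. The TATA box letters TATAAA, searched on both strands, were in the Slit2 window alone, at position -28, against 13.6% of all promoters. Windows of Slit2 and Slit3 are shown as the ligands that host miR-218, with the TATA box in capitals. They are Slit2 at chr5:47982905-47983204 and Slit3 at chr11:35121206-35121505, both on the plus strand.
Slit2: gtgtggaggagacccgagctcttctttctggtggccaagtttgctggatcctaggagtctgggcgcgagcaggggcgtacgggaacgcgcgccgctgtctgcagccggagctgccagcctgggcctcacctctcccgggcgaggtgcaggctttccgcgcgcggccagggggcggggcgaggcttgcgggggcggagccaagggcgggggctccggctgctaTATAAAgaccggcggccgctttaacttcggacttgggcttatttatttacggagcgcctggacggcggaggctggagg
Slit3: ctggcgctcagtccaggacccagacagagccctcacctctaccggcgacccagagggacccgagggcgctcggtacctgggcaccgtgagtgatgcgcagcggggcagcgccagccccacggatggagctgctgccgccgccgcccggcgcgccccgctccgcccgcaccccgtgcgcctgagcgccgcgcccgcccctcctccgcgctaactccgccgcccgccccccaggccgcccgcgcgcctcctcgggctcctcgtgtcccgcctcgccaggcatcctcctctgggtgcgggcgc
Both were rich in G and C, at 68.0% with 30 CpG pairs for Slit2 and 78.3% with 41 CpG pairs for Slit3. These matches describe letters in a window and say nothing of binding.

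The members lie at 5 places in the genome, since Robo1 and Robo2 follow each other on the same chromosome with no gene that has a probe set of its own between them. The genes around Slit1 and Slit3 had smaller differences than these members. The 6 nearest genes of Slit1 with a probe set were all tested and none reached an unadjusted p of 0.05, with differences from -0.05 for Lcor to 0.16 for Arhgap19 (SE 0.073), whose groups were separated by less than 0.001. The value for Arhgap19 was 0.07 without WT 38. Of the 6 around Slit3, 4 were tested, with differences from 0.01 to 0.06, all of the opposite sign to Slit3. No test of the member against its neighbours was made.

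Of 48 tested genes that work with Slits and Robos, 27 were above 0 and 21 below, beside 58.9% of all genes above 0. None of the 48 passed over all genes with limma. An unadjusted p under 0.05 was reached by 5 of the 48, 1 higher and 4 lower, beside 6.79% of all genes. Without overlap between the groups were 8 of the 48, 4 higher and 4 lower, beside 8.38%. Their median difference was 0.005, beside 0.01 over all genes. These genes were chosen with earlier results of these data known, so the counts test nothing about the pathway.

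Among 10 co-receptors, receptors and other ligands, 3 had separate groups, beside 8.38% of all genes, in a list chosen with earlier results known. Flrt3, a leucine-rich membrane protein known to bind Robo1 and modulate its signalling, read 10.50, 10.44, 10.47 and 10.64 on CKO 1, CKO 4, CKO 34 and CKO 43. It read 10.88, 10.999 and 10.93 on WT 6, WT 27 and WT 38, so every CKO array was lower. The difference was -0.42 (SE 0.057, adjusted p 0.134 by limma), and -0.41 within the mixed lot. Nell2, a secreted ligand of Robo3, lay at 12.26 to 12.41 in CKO and 12.48 to 12.55 in WT, a difference of -0.16 (SE 0.047). Dcc, the netrin receptor that forms complexes with Robos, lay at 12.39 to 12.49 in CKO and 12.28 to 12.32 in WT, or 0.14 (SE 0.041) apart, and 0.09 (SE 0.043) apart within the mixed lot. Both had an adjusted p of 0.711 by limma. Robo4, the endothelial relative of the family, overlapped between the groups, with a difference of 0.07 (SE 0.055) that was -0.02 within the mixed lot.

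Of 13 heparan sulfate genes 10 were above 0, with a median of 0.04, beside 58.9% of all genes above 0. None of the 10 reached an unadjusted p of 0.05 or lay apart from WT without overlap, and the 3 below 0 were the 6-O-sulfotransferases. Hs6st3 lay at 8.49 to 8.97 in CKO and 8.997 to 9.23 in WT, without overlap, a difference of -0.41 (SE 0.110). Hs6st2 lay at 10.36 to 10.52 in CKO and 10.49 to 10.84 in WT, where WT 6 fell inside the CKO range, a difference of -0.28 (SE 0.088). The third of these enzymes, Hs6st1, differed by -0.10 (SE 0.061). Hs6st3 and Hs6st2 had an adjusted p of 0.711 by limma. Gpc1, a glypican that binds Slit, differed by 0.11 (SE 0.054), or 0.06 within the mixed lot and 0.17 without WT 27.

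Cytoplasmic effectors had small differences. None of 18 reached an unadjusted p of 0.05, and differences ran from -0.09 for Srgap2 (SE 0.043) to 0.11 for Abl1 (SE 0.050). Srgap2 encodes a GTPase-activating protein of the srGAP group that binds the Robo tail, and Abl1 a tyrosine kinase that phosphorylates Robo. The 3 with separate groups, Abl1, Cap1 and Sos2, were all higher in CKO, by 0.05 for Sos2 and Cap1, beside 5.39% of all genes higher without overlap. Abl1 was at 0.02 (SE 0.043) within the mixed lot and 0.06 without WT 6, and Srgap2 at -0.05 within the mixed lot. Of 7 trafficking and cleavage genes tested, none reached that p. Nedd4l, a ubiquitin ligase, had the smallest p of them, with a difference of -0.04 (SE 0.037), or -0.03 without WT 38.

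**Figure D4:**
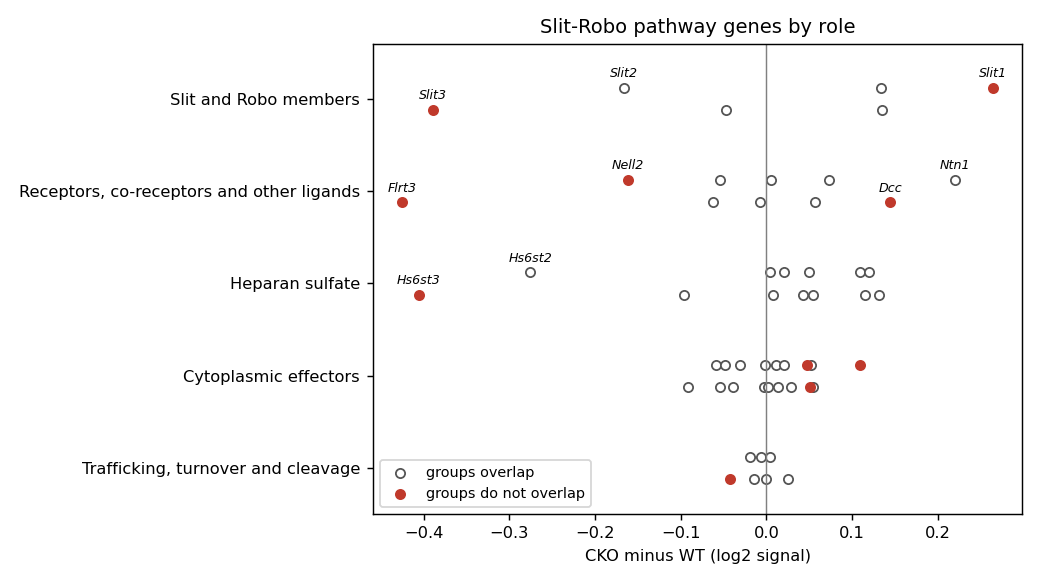
Difference between CKO and WT (x axis, log2 signal) for the 6 members and for 48 pathway genes grouped by role (rows), filled where the groups do not overlap. Effectors and trafficking genes lie within 0.11 of 0, while Flrt3, Hs6st3 and Slit3 lie near -0.4.

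The genes whose signal followed Slit1 most closely over the 7 arrays included 1 of the 4 that passed over all genes. The highest Pearson r among 16143 genes was with Syt6, a synaptotagmin of layer 6 neurons (0.987), then Ppp1r1b, which encodes DARPP-32 (0.977), then E2f7 and Ppm1e (0.969 each) and Plaat1 (0.963). The lowest was with Samd12 (-0.988), Npy (-0.976) and Usf1 (-0.965). Syt6 differed by 0.67 (SE 0.041), and Samd12 by -0.31 (SE 0.043). Ppp1r1b is also a striatal marker, the one with the smallest p in the list given below, and differed by 0.43 (SE 0.068). The r values are the extremes of many, they share the genotype contrast and the same arrays, and they carry no p. When each array was set against its group mean, 6430548M08Rik (0.984), Suco (0.979), Med16 (0.975), Dcun1d1 and Arhgef19 (0.973 each) were closest to Slit1 instead, and none of the 5 genes above was among them. Zfp503 (-0.969), another marker of the striatal list, Eif4a2 (-0.966) and Gas8 (-0.957) were farthest. Closest to Slit3 were Met (0.984), a receptor tyrosine kinase, and Nxph2 (0.983). Closest to Robo1 were Pkdrej (0.982) and Smco3 (0.978), to Robo2 Arid4b (0.989) and Htr1d (0.978), to Robo3 Tspan9 and Wdr26 (0.992 each), and to Slit2 Tubb2a (0.957) and Pld3 (0.955).

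Markers of other tissue are given beside the 58.9% of all genes above 0. Of 11 striatal markers tested, with Tac1 under the filter, 10 were above 0 in CKO minus WT (median 0.24), and their mean deviation per array ran from -0.05 (CKO 4) to 0.32 (CKO 34) in CKO and from -0.29 (WT 27) to -0.10 (WT 38) in WT. None passed over all genes with limma, and 6 were higher at an unadjusted p under 0.05, beside 4.17% of all genes. The striatal covariate was the mean centred signal of 5 of these markers, Isl1, Six3, Ebf1, Drd2 and Penk. Left out were Ppp1r1b (0.43), Zfp503 (0.24), Drd1 (0.19), Rarb (0.10), Meis2 (0.05) and Foxp1 (-0.06), the only marker below 0. No covariate from another choice of these markers was tried. The covariate ran from -0.183 (CKO 4) to 0.549 in CKO and from -0.502 to -0.184 (WT 38) in WT, so it went largely with genotype. With it in the fit the difference was 0.31 (SE 0.059, against 0.039 without it) for Slit1, -0.43 (SE 0.163, against 0.10) for Slit3 and 0.10 (SE 0.093, against 0.058) for Robo1. All 8 markers of meninges and choroid plexus that were tested (Lum and Aldh1a2 were under the filter) were likewise above 0, with a median of 0.19 and mean deviations of -0.05 to 0.21 in CKO and -0.16 to 0.01 in WT. Of these 8, 4 were higher at an unadjusted p under 0.05. All 6 septal markers were positive too, with CKO 1 far above the rest at 0.47 and the other CKO arrays between -0.17 and 0.03. CKO 1 was also the highest array for Robo3. It was highest as well for the lists of interneurons, Cajal-Retzius cells, thalamus, hippocampus, and meninges and choroid plexus. The same held for endothelial and mural cells, microglia and the oligodendrocyte lineage. The part of septal or other tissue in the Robo3 value was not tested. All 10 markers of radial glia and progenitors were above 0, with a median of 0.13 and mean deviations of -0.03 to 0.12 in CKO and -0.15 to -0.01 in WT. Of these 10, 3 were higher at an unadjusted p under 0.05 by limma. Of 11 interneuron markers 7 were positive, with mean deviations of -0.20 to 0.19 in CKO and -0.11 to 0.01 in WT. At an unadjusted p under 0.05 by limma, 2 of the 11 were higher and 2 lower. The other lists had 3 of 6 markers above 0 for Cajal-Retzius cells, 4 of 7 for microglia, 5 of 7 each for thalamus and hippocampus, 7 of 9 for endothelial and mural cells, 5 of 6 for the oligodendrocyte lineage and 2 of 2 for red blood cells. For red blood cells WT 38 stood at -0.87, and all other arrays between -0.07 (CKO 43) and 0.49 (CKO 4). WT 38 was also the lowest array for radial glia and progenitors, endothelial and mural cells, and microglia. Layer markers above 0 numbered 5 of 10 for layer 6 and subplate, 4 of 6 for layer 5 and 3 of 8 for upper layers. For layer 6 and subplate 3 were higher and 3 lower at an unadjusted p under 0.05 by limma. This stands beside 4.17% and 2.61% of all genes. Syt6 (0.67) alone of those 10 passed over all genes with limma. The part of these cell types in the values of the Slits and Robos was not tested.

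**Figure D5:**
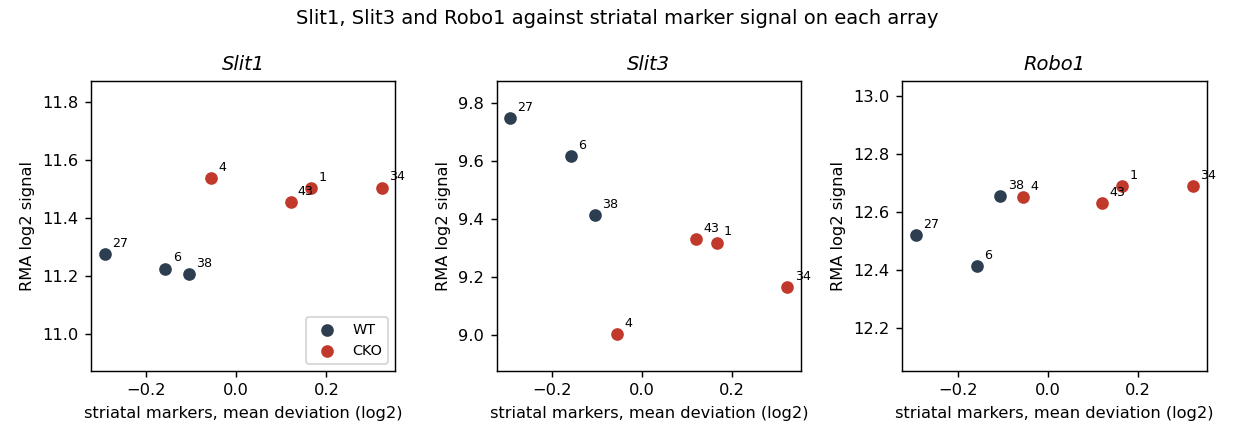
RMA log2 signal of Slit1, Slit3 and Robo1 (y axis, a span of 1 log2 unit) against the mean deviation of 11 striatal markers (x axis, log2) on each array, WT in dark blue and CKO in red. CKO 4, at -0.05 on the x axis, is the CKO array closest to the WT arrays, which end at -0.10. The part of striatal tissue in these signals was not tested.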

How the data were processed

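The deposited values are RMA log2 signals from Affymetrix Expression Console, as the submitters' processing notes state, with version and genome build not given in the sources used here. In the platform annotation, 21786 of 35468 probe sets had 1 gene symbol, 1621 several and 12061 none, and 21695 were matched by Entrez identifier to the RefSeq gene table of GRCm38.p6. Probe sets below the 25th percentile of mean signal (6.84) were left out and the brightest kept per gene. Array medians were 8.23, arrays correlated at 0.993 to 0.997 across genes over 21 pairs, and precision is limited by the number of arrays.

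CKO and WT were compared with limma 3.58.1 (lmFit, eBayes) in R 4.3.3 without a covariate (degrees of freedom 5 residual, 3.28 prior), and p-values were adjusted by Benjamini-Hochberg with a threshold of 0.05. The fit was also run on simulated data with independent normal noise, no lot or tissue effect, and changes larger than the difference of Slit1. That run says nothing about the differences of the members. The members and gene lists were chosen with earlier results of these data known. Genes named were the members, each pathway list's 3 smallest p-values, the genes nearest to Slit1, and by Pearson r the 5 most and 3 least like Slit1 and the 2 most like each other member. Some genes taken by the rule are not described one by one. Neurod2, Neurod6, Tbr1, Emx1, Slc17a7, Hs6st1, Cap1 and Robo4 were named after their values were seen. Alternatives were scaling, filters, averaging or using all probe sets, variance trend, array weights, array lot, covariates of striatal and Y-linked signal, and leaving out each array. The Y-linked signal was the mean centred signal of Ddx3y, Uty, Eif2s3y and Kdm5d. It was -3.64 on CKO 43 and between 0.32 (WT 27) and 0.72 (WT 6) on all other arrays. Figures were drawn with matplotlib 3.10.9.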

Additional observations from a re-analysis of the deposited data

Results flagged for a closer look

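Among 59 genes named by rule, each checked in the 4 CKO arrays, 3 had 1 array far from the others, and chance marks about 1 group in 20. Ndfip1, an adaptor of ubiquitin ligases, read 11.69 on CKO 1 and 11.62 on the other 3 CKO arrays. The upper-layer marker Rorb read 10.99 on CKO 34 and between 10.55 and 10.60 on the others. The endothelial marker Cdh5 read 10.17 on CKO 1 and between 9.93 and 9.97 on the others. No Slit or Robo member had such an array, and the WT group of 3 was not checked.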

How the results depend on the processing

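The differences of Slit1, Slit2, Slit3, Robo1 and Robo3 kept their sign in every alternative run, and no member passed an adjusted p of 0.05 in any of them. Much of this was fixed beforehand. Groups that do not overlap, as for Slit1 and Slit3, cannot change sign when arrays are left out. With 1 probe set per member, the filters, averaging, all probe sets and variance trend left the difference itself unchanged. Array lot as a fixed term gave the same difference as lot 2 alone. Robo3 was left out by a filter at the 50th percentile. With 1 array left out, Slit1 ran from 0.25 to 0.28, Slit2 from -0.23 to -0.11, Slit3 from -0.48 to -0.31, Robo1 from 0.08 to 0.20, Robo2 from -0.082 to 0.020 and Robo3 from 0.07 to 0.18. The sign of Robo2 turned without WT 38 (0.020). An exact two-sided permutation test over the 35 splits of the arrays gave Slit1 (0.26) and Slit3 (-0.39) a p of 0.0286 each. That is the smallest p these splits allow. Only a gene without overlap can reach it, so it restates the separation of the groups. Members without overlap numbered 2 to 4 with 1 array left out, an alternative chosen after seeing the data; the 4 came without WT 38, where 22.2% of all genes did not overlap. Of all genes, 0 passed within lot 2, with array lot as a fixed term or with the striatal covariate, 1 with the Y-linked covariate, array weights or all probe sets, and 1 to 6 with 1 array left out (6 without CKO 1), by limma. Within lot 2, 486 had an unadjusted p under 0.05. Pathway genes at that p numbered 3 within lot 2 or with array lot as a fixed term, 8 with the striatal covariate, and 4 to 8 with 1 array left out. With the striatal covariate Nell2 was at -0.267, Gpc1 at 0.219, Abl1 at 0.195, Srgap2 at -0.181, Nedd4l at -0.084 and Mir218-1 at -0.597. Robo4 was at -0.021 within lot 2 and with array lot as a fixed term, and Ndfip1 at 0.0083 without WT 6 (-0.039 without WT 38). No paired analysis was made, because the labels name no pairs or litters and the groups share no replicate numbers.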
